A study of Mus musculus with 4 samples.

Results

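Slc7a5, Slc3a2, Slc7a11, Slc7a1, Slc7a2, Slc38a2, Slc38a5, Slc1a4, Slc1a5 and Slc6a9 encode carriers that move amino acids across the plasma membrane. These 10 genes, of 21594 gene symbols in the count files, were chosen by name as amino acid transporters, and their levels were followed across the hormone-defined cell classes of the mouse islet and between Atf4 mutants and controls. The study profiled single cells of dissociated islets from mice aged 2 months. Mutants were Atf4F/F; Ins1Cre, in which a Cre recombinase driven from the insulin gene Ins1 targets the floxed Atf4 gene in beta cells, and controls were Atf4F/F, so both groups carried the floxed alleles and the controls had no Cre. Each group had 2 samples, each of them a pool of mice: 2 males with 2 females by the design text, 3 to 4 mice by the protocol for islet extraction. The p-values for mutant against control therefore measure the spread between 2 pools a group. Those for differences between cell classes, and for the change of such a difference with genotype, come from a joint fit of all classes with sample terms. They measure how the differences between classes vary between the 2 pools of a genotype, taken over all classes. These p-values thus also rest on 2 pools a group.

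Atf4 is a transcription factor made when cells sense amino acid shortage or stress in the endoplasmic reticulum, and genes of amino acid uptake are among its textbook targets. Slc7a5 pairs with the heavy chain Slc3a2 to exchange large neutral amino acids such as leucine for glutamine, and Slc7a11 pairs with the same heavy chain to exchange cystine for glutamate. Slc7a1 and Slc7a2 carry arginine and lysine, Slc38a2 and Slc38a5 carry glutamine and other small neutral amino acids with sodium, Slc1a4 and Slc1a5 exchange neutral amino acids, and Slc6a9 takes up glycine. In islets, leucine and arginine stimulate insulin release, and glucagon release and alpha cell number respond to amino acids.

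After filtering, the libraries held 1403 and 1714 cells in mutants 1 and 2 and 1997 and 1881 in controls 1 and 2, with median depths of 5186 to 5787 unique molecular identifiers (UMIs) per cell. Cells were classed only by their insulin, Gcg, Sst and Ppy UMIs, which left the transporters out of the choice: 4854 cells were beta-like, 711 alpha-like, 272 delta-like and 123 PP-like. Between 15 and 49 PP-like cells came from each sample, so values in that class rest on few UMIs. Markers not used by the gate followed it, with Ucn3 at 1077 UMIs per 1000000 (CPM, pooled over samples) in beta-like and 21.2 CPM in alpha-like cells, Irx2 at 194 CPM in alpha-like and 3.67 CPM in beta-like cells, Hhex at 345 CPM in delta-like cells and Pyy at 119006 CPM in PP-like cells; the beta cell factor Mafa had only 4 UMIs in beta-like cells. Pairs of libraries shared 41 to 82 cell barcodes. Levels below are UMI sums per sample and class as CPM scaled by the trimmed mean of M-values (TMM) over all 16 sums.

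Of the 10 genes, 7 had a promoter window in the RefSeq promoter table (build GRCm38.p6), which runs from 250 bases before to 50 after a transcription start. An 8-base motif known from Atf4 target genes, TGATGNAA (TTNCATCA on the other strand), was present in the windows of Slc7a11 and Slc1a4, and in 3.97% of all 32851 windows. The following stretches carry those matches, in capitals, and are shown because these are the 2 transporters whose windows held one.
Slc7a11, chr3:50443610-50443733, minus strand: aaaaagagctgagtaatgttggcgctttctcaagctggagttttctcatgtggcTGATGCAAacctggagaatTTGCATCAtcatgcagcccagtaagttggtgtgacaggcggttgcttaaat
Slc1a4, chr11:20332710-20332833, minus strand: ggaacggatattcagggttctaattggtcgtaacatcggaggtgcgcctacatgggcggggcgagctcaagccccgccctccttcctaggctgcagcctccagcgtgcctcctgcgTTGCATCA
The Slc7a11 window held 1 match on each strand, and 23 of all windows held 2 or more. The match of Slc1a4 lay on the other strand and spanned the annotated start. No match was found in the windows of Slc3a2, Slc7a1, Slc38a2, Slc38a5 and Slc6a9. The window of Slc3a2 (chr19:8713848-8714147, minus strand) lay inside the GENCODE span of the gene (chr19:8706882-8723369). Those of Slc6a9 lay inside its span too (chr4:117834506-117875198, plus strand). The upstream ends of these spans were thus not searched. Slc7a5, Slc7a2 and Slc1a5 had no window. In GENCODE vM21, Slc7a11 spans chr3:49892526-50443614, Slc1a4 chr11:20302180-20332713 and Slc7a5 chr8:121881150-121907694, all on the minus strand, and Slc7a2 spans chr8:40862396-40922308 and Slc38a5 chrX:8271133-8280179 on the plus strand.

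The clearest differences between alpha-like and beta-like cells lay in Slc38a5 and Slc7a2, which were higher in alpha-like cells, and Slc7a5, which was higher in beta-like cells. In controls, edgeR placed 3 of the 6 transporters that passed the filter on low counts over the 16 sums past an adjusted p of 0.05, against 33.4% of the 9410 genes tested (14.3% higher and 19.1% lower in alpha-like cells). This split of all genes depended on the scaling: 1346 higher and 1795 lower became 1555 and 1554 with DESeq2's size factors in edgeR, and 2774 and 942 with library totals alone. The median log2 difference of these 6 was 0.21, beside −0.07 over all tested genes. Slc7a11, Slc1a4, Slc1a5 and Slc6a9 did not pass that filter.

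**Figure D1:**
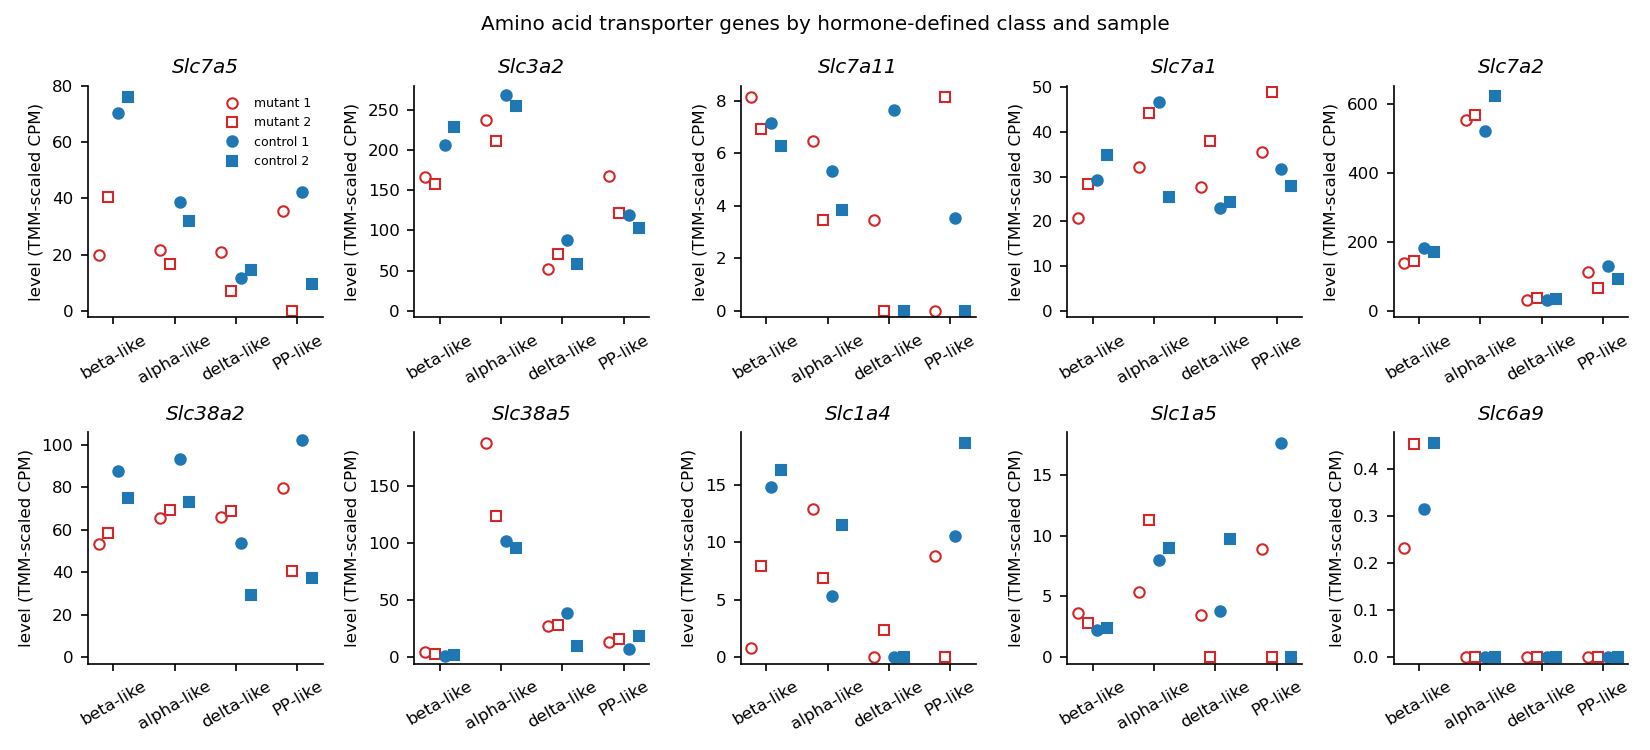
Level of each transporter gene (y axis, TMM-scaled CPM, linear scale, a separate range in each panel) in the 4 hormone-defined classes (x axis), with 1 point per sample: open red for mutants, filled blue for controls, circles for replicate 1 and squares for replicate 2. Slc38a5 and Slc7a2 stand highest in alpha-like cells of all 4 samples, and Slc7a5 in beta-like cells of both controls.

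Slc38a5, a sodium-coupled glutamine carrier, stood at 101 and 95.8 CPM in the alpha-like cells of controls 1 and 2 and at 187 and 123 CPM in those of mutants 1 and 2. In beta-like cells it stood at 1.37 and 2.19 CPM in controls and 4.19 and 2.83 CPM in mutants, from 13 to 36 UMIs a sample. The alpha-like level was above the beta-like level in all 4 samples, by 5.74 ± 0.277 log2 units in controls (SE, n = 2, edgeR adjusted p = 6.81e-25) and 5.44 ± 0.230 in mutants (edgeR adjusted p = 1.13e-27). The beta-like level was 1.03 to 1.93% of the alpha-like level of the same sample. Alpha cell genes reached like shares in beta-like cells, 0.830 to 1.47% for Gcg and 1.41 to 2.61% for Irx2, and the part of alpha cell RNA in the Slc38a5 UMIs of beta-like cells was not tested. The Slc38a5 share in mutant 1 (1.93%, 95% interval 1.35 to 2.68%) and control 2 (1.79%, 1.15 to 2.66%) lay above that of Gcg (0.830% and 1.06%), while its interval overlapped that of Irx2 in all 4 samples. In delta-like cells of controls Slc38a5 stood at 38.3 and 9.76 CPM, from 10 and 2 UMIs, and in PP-like cells at 7.04 and 18.7 CPM, from 2 UMIs each. By mean level the order in controls was alpha-like, delta-like, PP-like and beta-like, but in control 2 the PP-like value was above the delta-like one. PP-like cells did not differ from beta-like cells past the threshold (2.48 ± 0.998, edgeR adjusted p = 0.0892). Alpha-like cells differed from delta-like cells (1.94 ± 0.411, edgeR adjusted p = 0.000447), as did 11.3% of all genes, while delta-like and PP-like cells did not differ beyond their spread (edgeR adjusted p = 0.506). The delta-like level exceeded the beta-like one by 3.80 ± 0.658 log2 units (edgeR adjusted p = 9.31e-06), a call that was lost without control 1 (2.06, edgeR adjusted p = 0.401). Gcg in delta-like cells was at 2906 and 1661 CPM in controls, beside 240084 and 245821 CPM in alpha-like cells.

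Slc7a2, a carrier of arginine and lysine, was higher in alpha-like cells than in each other class. It stood at 520 and 622 CPM in the alpha-like cells of controls 1 and 2, 182 and 169 CPM in beta-like, 130 and 93.3 CPM in PP-like and 30.6 and 34.1 CPM in delta-like cells. The alpha-like values overlapped with none of the others, in mutants (554 and 566 CPM) as in controls. Alpha-like cells exceeded beta-like cells by 1.70 ± 0.120 log2 units in controls (edgeR adjusted p = 5.99e-18), a 3.25-fold difference, and by 1.99 ± 0.119 in mutants (edgeR adjusted p = 5.48e-21). They exceeded PP-like cells by 2.25 ± 0.217 (edgeR adjusted p = 1.55e-11, beside 5.26% of all genes past the threshold) and delta-like cells by 4.14 ± 0.270 (edgeR adjusted p = 1.94e-18). Beta-like and PP-like cells, next in the order, did not differ beyond their spread (−0.55 ± 0.234, edgeR adjusted p = 0.115). Delta-like cells were lower than both beta-like cells (−2.44 ± 0.309, edgeR adjusted p = 7.24e-09) and PP-like cells (PP-like above delta-like by 1.89 ± 0.419, edgeR adjusted p = 0.00229, beside 4.05% of all genes). With clusters in place of the gate the difference of delta-like from beta-like cells was smaller, at −0.35 (edgeR adjusted p = 0.0124). The only cluster named delta held 654 cells, of which the gate called 265 delta-like and 84 beta-like. This limit holds for all cluster values of delta-like cells below. The other arginine carrier, Slc7a1, showed no such order: controls stood at 46.6 and 25.5 CPM in alpha-like, 29.2 and 35.0 in beta-like, 31.7 and 28.0 in PP-like and 23.0 and 24.4 in delta-like cells. None of its class differences in controls passed the test, while in mutants, where 4 of the 6 transporters passed beside 38.7% of all genes, the alpha-like level (32.3 and 44.3 CPM) was above the beta-like one (20.7 and 28.3 CPM) by 0.64 ± 0.230 log2 units (edgeR adjusted p = 0.0220).

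Slc7a5, the light chain that carries large neutral amino acids, was highest in beta-like cells of controls, at 70.2 and 76.2 CPM, against 38.6 and 31.9 CPM in alpha-like cells. The values of the 2 classes did not overlap, and the difference was −1.06 ± 0.265 log2 units (edgeR adjusted p = 0.00112). This call was lost without control 2 (−0.86, edgeR adjusted p = 0.0521) and with DESeq2 (−0.99, adjusted p = 0.256). PP-like cells stood at 42.2 and 9.33 CPM, from 12 and 1 UMIs, and delta-like cells at 11.5 and 14.6 CPM, from 3 UMIs each. Delta-like cells were below beta-like cells by 2.50 on the log2 scale (−2.50 ± 0.544, edgeR adjusted p = 0.000388), with −1.15 when clusters replaced the gate. The difference of PP-like from beta-like cells missed the threshold (−1.15 ± 0.456, edgeR adjusted p = 0.0829), but 3 of the 4 fits that left out 1 sample called it, with differences from −3.10 to −0.73. In the order beta-like, alpha-like, PP-like and delta-like, only the first step passed the test. In mutants the gap between alpha-like cells (21.5 and 16.5 CPM) and beta-like cells (19.7 and 40.5 CPM) was not past the threshold (−0.67 ± 0.311, edgeR adjusted p = 0.0838), and the change of the gap with genotype was not either (0.39 ± 0.431, edgeR adjusted p = 0.990).

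Slc3a2, the heavy chain that brings Slc7a5 and Slc7a11 to the membrane, had another order. It stood at 269 and 255 CPM in alpha-like cells of controls, 207 and 229 in beta-like, 120 and 103 in PP-like and 88.1 and 58.5 in delta-like cells. The alpha-like values lay above the beta-like ones, with a difference that missed the threshold in controls (0.27 ± 0.126, edgeR adjusted p = 0.0971) and passed it in mutants (0.46 ± 0.125, edgeR adjusted p = 0.00200). Scaling moved it: with DESeq2's size factors in edgeR the control difference was 0.35 (adjusted p = 0.0217), and with library totals alone it was 0.64 (adjusted p = 2.74e-05), where the median of all genes also moved by 0.37. Slc3a2 was lower than in beta-like cells in delta-like cells (−1.54 ± 0.236, edgeR adjusted p = 8.12e-07, and −0.62 with clusters in place of the gate) and PP-like cells (−0.92 ± 0.228, edgeR adjusted p = 0.00261). The PP-like call of edgeR was lost without control 1 (−1.23, adjusted p = 0.0618), without control 2 (−0.79, adjusted p = 0.0615) and with library totals (−0.38, adjusted p = 0.296). In all, 1 of the 6 transporters was higher and 4 were lower in delta-like than in beta-like cells, beside 6.57% and 11.8% of all genes (18.3% in either direction), and 1 of 6 was lower in PP-like than in beta-like cells, beside 9.82% lower and 4.75% higher (14.6% in either direction). The splits of all genes moved with the scaling here too. In delta-like cells 618 higher and 1106 lower became 831 and 732 with DESeq2's size factors in edgeR and 1612 and 397 with library totals. In PP-like cells 447 and 924 became 615 and 634, and 1202 and 339.

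**Figure D2:**
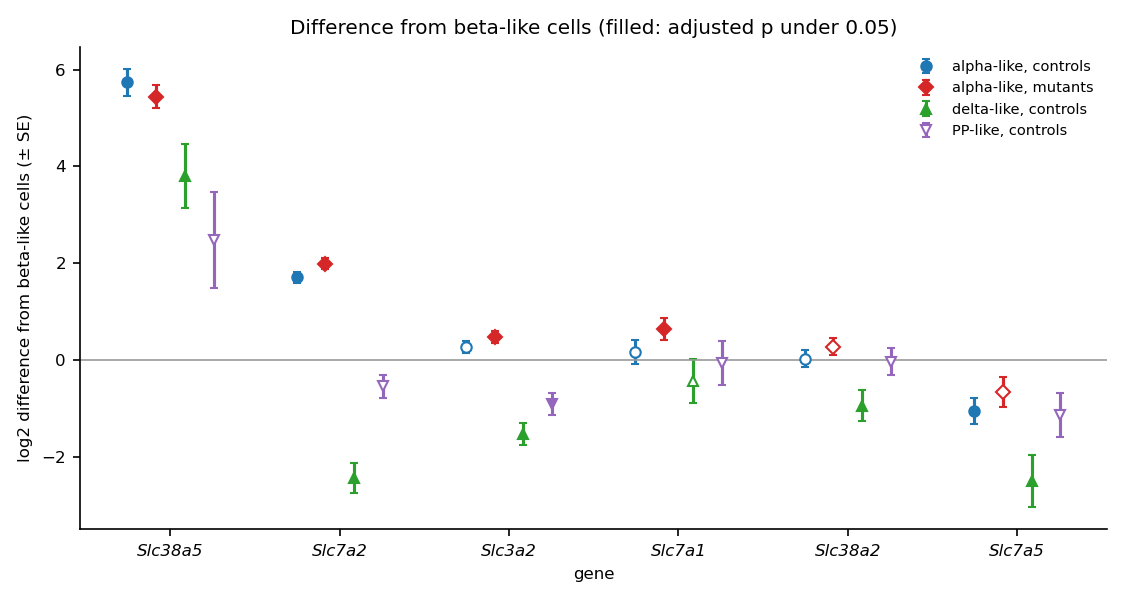
Log2 difference from beta-like cells (y axis, ± SE) of the 6 transporters tested over the 16 sums (x axis), for alpha-like cells of controls (circles) and mutants (diamonds), delta-like cells of controls (upward triangles) and PP-like cells of controls (downward triangles), with filled symbols where the edgeR adjusted p was under 0.05. Slc38a5 and Slc7a2 lie above 0 in alpha-like cells of both genotypes, and Slc7a2, Slc3a2 and Slc7a5 lie below 0 in delta-like cells.

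Slc38a2, the widely expressed relative of Slc38a5, was at like levels in alpha-like and beta-like cells: 93.3 and 72.8 CPM in alpha-like, 87.6 and 74.9 in beta-like, 102 and 37.3 in PP-like and 53.6 and 29.3 in delta-like cells of controls. The lower delta-like level passed the test (−0.95 ± 0.320, edgeR adjusted p = 0.0288), but the call was held in 6 of 14 alternatives, with adjusted p from 0.00848 to 0.417. Slc1a4 stood at 14.8 and 16.3 CPM in beta-like and 5.33 and 11.5 CPM in alpha-like cells of controls, the latter from 4 and 9 UMIs, and had 0 UMIs in the delta-like cells of both controls. Slc1a5, a glutamine exchanger, stood at 2.21 and 2.37 CPM in beta-like and 8.0 and 8.94 CPM in alpha-like cells, from 6 and 7 UMIs in the latter. With no filter on low counts Slc1a5 was 1.87 ± 0.642 log2 units higher in alpha-like cells of controls (edgeR adjusted p = 0.0271 over 21287 genes). For Slc1a4 the corresponding value was −0.88 ± 0.447 (edgeR adjusted p = 0.225) in controls and 1.23 ± 0.465 (edgeR adjusted p = 0.0465) in mutants, where the beta-like level was 0.815 and 7.94 CPM. Slc7a11 was low everywhere, at 7.15 and 6.28 CPM in beta-like and 5.33 and 3.83 CPM in alpha-like cells of controls. Slc6a9 had 14 UMIs in all beta-like cells, between 2 and 5 a sample, and none in the other hormone classes. The 0 count in alpha-like cells allows a level of up to 0.827 CPM (3 UMIs over all samples, counting error only), so a difference from the beta-like levels of 0.233 to 0.455 CPM was not detectable at this depth.

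Other cell types were few, and their levels are CPM without TMM scaling. Slc3a2 had 65 UMIs in the 96 endothelial cells (279 CPM, 95% Poisson interval 215 to 356, counting error only) and 50 in the 62 macrophages (296 CPM, 219 to 390). Slc38a2 had 40 UMIs in macrophages (237 CPM, 169 to 322). The 24 stellate cells held 11 UMIs of Slc1a5 (243 CPM, 121 to 435). Slc38a5, Slc1a4 and Slc6a9 had no UMI in endothelial cells or macrophages, which allows up to 12.9 and 17.7 CPM (3 UMIs of the total).

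Other carriers also differed between alpha-like and beta-like cells. Of 43 other amino acid transporter genes, 15 were tested, and 5 were higher and 8 lower in alpha-like cells of controls (median log2 difference −0.46, beside −0.07 over all genes), where 14.3% of all genes were higher and 19.1% lower. With DESeq2's size factors in edgeR 5 were higher and 7 lower, and with library totals 7 higher and 2 lower. Slc7a8, another light chain for neutral amino acids, stood at 308 and 369 CPM in alpha-like and 134 and 161 CPM in beta-like cells (1.20 ± 0.141, edgeR adjusted p = 3.67e-10). Slc16a10, a carrier of aromatic amino acids, stood at 678 and 697 against 332 and 351 CPM (1.01 ± 0.141, edgeR adjusted p = 3.67e-08). Slc38a10 (157 and 153 against 279 and 294 CPM, −0.88) and Slc7a15 (12.0 and 8.94 against 43.0 and 33.7 CPM, −1.87) were lower in alpha-like cells. Against beta-like cells, 6 of the 15 were lower and 0 higher in delta-like cells, led by Slc7a8 (15.3 and 29.3 CPM, −2.76), and 5 were lower and 1 higher in PP-like cells, where Slc16a10 stood at 820 and 718 CPM (1.20). Of all genes 11.8% were lower and 6.57% higher in delta-like cells, and 9.82% and 4.75% in PP-like cells. With library totals these counts were 4 lower and 3 higher in delta-like cells and 2 and 2 in PP-like cells; with DESeq2's size factors they were 4 and 0, and 3 and 2.

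Of 33 tested genes of amino acid sensing by mTORC1 and the kinase Gcn2, 4 were higher and 4 lower in alpha-like than in beta-like cells of controls (median −0.20), beside 14.3% and 19.1% of all genes. With library totals 8 were higher and 2 lower, and with DESeq2's size factors in edgeR 5 and 4. Rragb, a Rag GTPase that recruits mTORC1 to the lysosome, stood at 49.3 and 91.9 CPM in alpha-like and 18.8 and 12.7 CPM in beta-like cells (2.17 ± 0.247, edgeR adjusted p = 1.33e-10). The leucine sensor family gene Sesn1 was higher as well (70.6 and 79.2 against 39.4 and 35.1 CPM, 1.01). Eif4ebp1, a translation repressor, was lower in alpha-like cells (4.00 and 7.66 against 28.1 and 34.2 CPM, −2.40), and so was the mTORC1 inhibitor Ddit4 (66.6 and 38.3 against 103 and 98.5 CPM, −0.95). In delta-like cells of controls Eif4ebp1 had 0 UMIs, at least 4.88-fold lower than in beta-like cells against a floor of 3 UMIs over both controls. There 6 genes of this list were lower and 0 higher (3 and 2 with DESeq2's size factors, 1 and 4 with library totals), beside 11.8% and 6.57% of all genes. Between PP-like and beta-like cells 0 of 33 passed by edgeR, beside 14.6% of all genes. Before adjustment 7 of them were lower and 0 higher at p under 0.05, beside 1658 lower and 742 higher of all 9410 genes. Slc7a11 supplies cystine for glutathione, and of 10 tested glutathione genes 4 were lower and 0 higher in alpha-like cells: Ggt7 (5.33 and 2.55 against 26.9 and 27.2 CPM), the glutathione-degrading enzyme Chac1 (6.66 and 5.11 against 30.6 and 39.0 CPM), Gsr and Gpx4. With DESeq2's size factors the count was 4 lower and 0 higher as well, and with library totals 2 and 2, beside 19.1% lower and 14.3% higher of all genes.

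The comparison of mutants with controls asks how beta cell loss of Atf4 bears on the transporters. The targeted gene in beta-like cells was at 8.03 CPM in mutant 1, 148 CPM in mutant 2 and 446 and 457 CPM in the controls; the pool of mutant 2 thus kept part of its Atf4 UMIs, and the change of Atf4 did not pass the test (−2.53 ± 0.900, edgeR adjusted p = 0.269). In beta-like cells Slc7a5, Slc3a2, Slc38a2, Slc7a1, Slc7a2 and Slc1a4 had both mutants below both controls, 6 of the 9 transporters tested, where 23.3% of all 13753 genes did so, and Slc38a5 and Slc1a5 had both mutants above, where 22.5% did. With edgeR, 0 of 9 passed an adjusted p of 0.05, beside 0.465% of all genes, and with DESeq2 and limma-voom also 0 passed. At an unadjusted p under 0.05, 5 were lower and 1 higher, beside 1904 of all 13753 genes in either direction. The median log2 change of the 9 was −0.39, beside 0.00 over all genes. When all cells were clustered with the transporters left out, several of the clusters named beta held cells of mainly 1 genotype. Cluster 3 held 295 and 198 cells of mutants 1 and 2 and 6 and 18 of controls 1 and 2, and cluster 13 held 285, 280, 7 and 6. The smaller cluster 10 held 25, 23, 4 and 6, and cluster 0, mostly from mutant 2, held 26, 150, 29 and 12. Clusters 7, 11 and 12 held 5 to 51 cells of each mutant and 168 to 428 of each control.

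Slc7a5 stood at 19.7 and 40.5 CPM in the beta-like cells of mutants 1 and 2 and 70.2 and 76.2 CPM in controls, a log2 change of −1.28 ± 0.272 (SE, n = 2 a group, edgeR adjusted p = 0.107). Mutant 1 was the lowest and mutant 2 lay between it and the controls, the order that Atf4 itself had. Slc1a4, Slc38a2, Slc7a1 and Slc7a2 had this order too, while Slc3a2 was lowest in mutant 2. The mutants lay close together for Slc38a2 (53.4 and 58.4 CPM) and Slc7a2 (138 and 144 CPM). How many of all genes had this order was not counted. The change passed the threshold without mutant 2 (−1.87, edgeR adjusted p = 0.00290), with control 1 or control 2 left out, with no filter on low counts and with the replicate number as a block (−1.35, edgeR adjusted p = 0.0213), and it missed the threshold without mutant 1 (−0.85, edgeR adjusted p = 0.154). Over 20 alternatives the log2 change ran from −1.87 to −0.85 and the adjusted p from 1.03e-07 to 0.465, past the threshold in 7. Its heavy chain Slc3a2 stood at 167 and 158 against 207 and 229 CPM (−0.42 ± 0.121, edgeR adjusted p = 0.191).

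Slc1a4, the neutral amino acid exchanger, stood at 0.815 CPM in mutant 1 (7 UMIs), 7.94 CPM in mutant 2 (70 UMIs) and 14.8 and 16.3 CPM in controls (141 and 179 UMIs), a log2 change of −1.82 ± 0.615 (edgeR adjusted p = 0.248). Without mutant 2 the change was −4.21 (edgeR adjusted p = 0.00160), without control 1 it was −1.89 (edgeR adjusted p = 4.46e-06) and without mutant 1 it was −0.96 (edgeR adjusted p = 0.265), and over 20 alternatives the adjusted p ran from 4.46e-06 to 0.861. Slc7a11 did not share this pattern: it stood at 8.15 and 6.92 CPM in mutants against 7.15 and 6.28 CPM in controls, overlapping groups with a log2 change of 0.17 ± 0.224 (edgeR adjusted p = 0.792). Both genes carry the motif shown above.

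Slc38a2 stood at 53.4 and 58.4 CPM in mutants against 87.6 and 74.9 CPM in controls (−0.54 ± 0.126, edgeR adjusted p = 0.137). Its call was gained without control 2 (−0.65, edgeR adjusted p = 0.0476), 1 of 2 calls in 20 alternatives. The arginine carriers differed less, with Slc7a2 at 138 and 144 against 182 and 169 CPM (−0.31, edgeR adjusted p = 0.293) and Slc7a1 at 20.7 and 28.3 against 29.2 and 35.0 CPM (−0.39, edgeR adjusted p = 0.393). Slc38a5, at 4.19 and 2.83 against 1.37 and 2.19 CPM (0.96, edgeR adjusted p = 0.319), had few UMIs there, and the part of alpha cell RNA in them was not tested. Slc1a5 stood at 3.61 and 2.83 against 2.21 and 2.37 CPM (0.49, edgeR adjusted p = 0.547), and Slc6a9 had 2 and 4 UMIs against 3 and 5 and was not tested.

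Each pool held both sexes by the design text. Beta-like cells were therefore also compared by sex-linked UMIs, a choice made after the values were seen. In cells that had Xist but no UMI of the Y-linked Ddx3y, Eif2s3y, Kdm5d or Uty (166 to 236 a sample), the Atf4 level was 1.95 CPM in mutant 1, 12.4 CPM in mutant 2 and 408 and 524 CPM in controls 1 and 2. There Slc7a5 stood at 18.7 and 25.3 CPM in mutants against 65.4 and 87.9 CPM in controls, a log2 change of −1.81 ± 0.218 (edgeR adjusted p = 0.00136 over 10682 genes, 1.63% of which passed). Slc1a4 fell too, from 15.3 and 20.3 CPM (34 and 40 UMIs) in controls to 0 and 2.58 CPM (0 and 5 UMIs) in mutants, with a log2 change of −3.92 ± 0.644 (edgeR adjusted p = 0.0132). These 2 of the 7 transporters tested in these cells passed. Slc38a2 (55.3 and 46.9 against 84.8 and 79.8 CPM, −0.68, edgeR adjusted p = 0.0648), Slc3a2 (157 and 138 against 191 and 265 CPM, −0.62, edgeR adjusted p = 0.104) and Slc7a1 (14.8 and 18.1 against 21.7 and 40.1 CPM, −0.91, edgeR adjusted p = 0.183) did not, and neither did Slc7a2 (−0.14) or Slc7a11 (0.40).

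In cells with Y-linked UMIs and no Xist (225 to 375 a sample), Atf4 stood at 8.40 CPM in mutant 1 but 228 CPM in mutant 2, and 457 and 422 CPM in controls. Slc7a5 followed the same order at 21.5, 47.8, 67.9 and 64.5 CPM (−0.91 ± 0.307, edgeR adjusted p = 0.465), and Slc1a4 at 0.672, 11.6, 18.1 and 13.1 CPM (−1.23 ± 0.669, edgeR adjusted p = 0.657). With edgeR, 0 of the 9 transporters passed in these cells, beside 0.0675% of 11850 genes; at an unadjusted p under 0.05, Slc7a5 and Slc7a2 (−0.47) were lower. The difference between the changes in the 2 sets of cells was not tested.

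**Figure D3:**
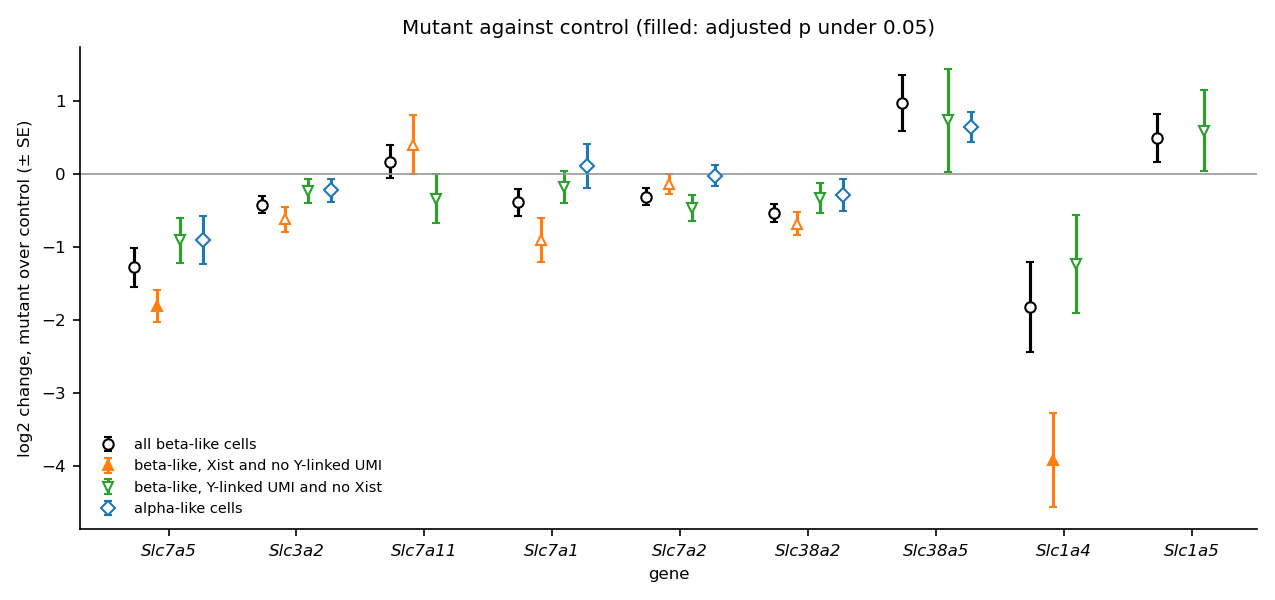
Log2 change of mutant over control (y axis, ± SE) of 9 transporters (x axis) in all beta-like cells (circles), those that had Xist but no Y-linked UMI (upward triangles), those that had Y-linked UMIs but no Xist (downward triangles) and alpha-like cells (diamonds), with filled symbols where the edgeR adjusted p was under 0.05 and no symbol where a gene was not tested. The filled symbols are Slc7a5 and Slc1a4 in the cells with Xist.

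Within the pool of mutant 2, cells could be compared by their own Atf4 UMIs, with no test because this is 1 sample. Among beta-like cells of over 8000 UMIs, 246 had 0 Atf4 UMIs and 149 had at least 3; levels here are CPM without TMM scaling, with exact 95% Poisson intervals that cover counting error only. Slc7a5 stood at 21.6 CPM (17.4 to 26.6) in the cells with 0 and at 47.8 CPM (40.1 to 56.4) in the cells with at least 3. The first was near mutant 1, at 17.6 CPM (14.8 to 20.8), and the second was below control 2, at 64.2 CPM (59.5 to 69.2), while its interval overlapped that of control 1, at 55.6 CPM (50.9 to 60.7). Slc1a4 stood at 1.95 CPM (0.840 to 3.83) and 9.35 CPM (6.16 to 13.6), beside 0.504 CPM in mutant 1 and 12.1 and 13.7 CPM in controls. Slc7a1 stood at 18 CPM (14.1 to 22.6) and 31.2 CPM (25.1 to 38.3), beside 18.9 CPM in mutant 1 and 23.8 and 30.4 CPM in controls. The intervals of these 3 genes did not overlap between the cells with 0 and with at least 3. With every cell thinned to 8000 UMIs the ratio of Slc1a4 was 2.20 (0.764 to 6.34) in place of 4.80 (2.18 to 10.6), and that of Slc7a5 1.93 in place of 2.21. The thinned levels of Slc7a5 stayed apart, at 23.9 CPM (17.5 to 31.8) and 46.1 CPM (34.8 to 60.1). Those of Slc7a1, at 16.8 CPM (11.5 to 23.5) and 31.0 CPM (21.9 to 42.8), overlapped, and so did those of Slc1a4, at 3.05 CPM (1.12 to 6.64) and 6.71 CPM (2.90 to 13.2).

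The other transporters had overlapping intervals between those cells, whose median depths were 15004.5 and 18121 UMIs. Slc3a2 stood at 124 CPM (113 to 135) and 147 CPM (133 to 162), Slc38a2 at 46.7 CPM (40.3 to 53.8) and 58.5 CPM (50.0 to 68.0), and Slc7a2 at 133 CPM (122 to 144) and 116 CPM (104 to 129). Slc7a11 stood at 6.57 and 6.23 CPM. Slc3a2 was apart when thinned to 8000 UMIs, at 117 CPM (103 to 134) and 164 CPM (141 to 188). Over all beta-like cells of mutant 2 Slc3a2, at 116 CPM (107 to 126) and 145 CPM (132 to 159), and Slc38a2, at 42.5 CPM (37.3 to 48.3) and 57.0 CPM (48.9 to 66.1), were apart as well. Summed over all 10 genes the levels were 356 CPM (338 to 375) and 420 CPM (396 to 444), a ratio of 1.18. The sex of the cells moved with the split: of the cells that could be told, 58.4% of those with 0 Atf4 UMIs and 1.59% of those with at least 3 had Xist but no Y-linked UMI. Within the cells with Y-linked UMIs and no Xist, 69 with 0 Atf4 UMIs and 124 with at least 3, Slc7a5 stood at 22.5 CPM (14.6 to 33.2) and 47.4 CPM (39.0 to 57.0), intervals that did not overlap. Slc1a4, at 2.70 CPM (0.557 to 7.89) and 9.73 CPM (6.17 to 14.6), and Slc7a1, at 22.5 CPM (14.6 to 33.2) and 29.6 CPM (23.1 to 37.4), had overlapping intervals there.

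**Figure D4:**
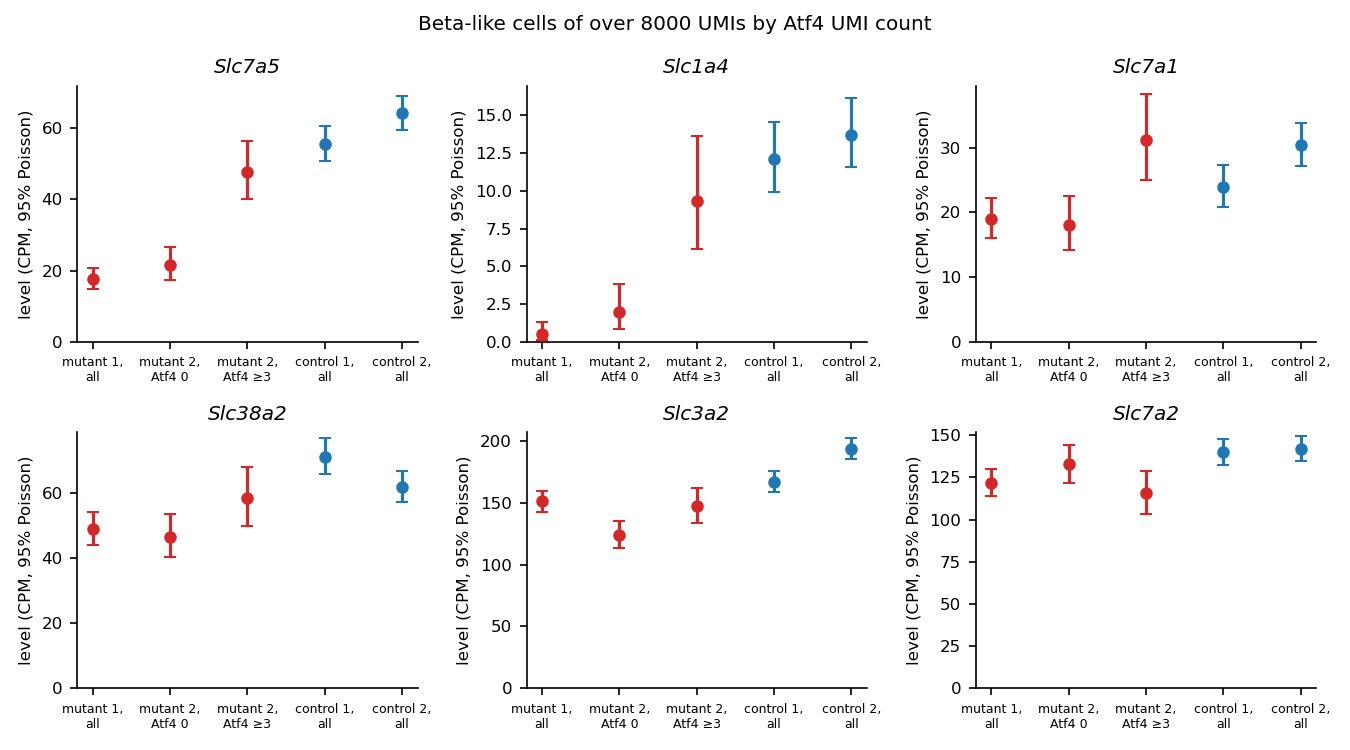
Level of 6 transporters (y axis, CPM without TMM scaling, from 0; bars are exact 95% Poisson intervals) in beta-like cells of over 8000 UMIs, for mutant 1, for mutant 2 split into cells with 0 and with at least 3 Atf4 UMIs, and for both controls (x axis). Slc7a5, Slc1a4 and Slc7a1 have intervals that do not overlap between the 2 parts of mutant 2; with cells thinned to 8000 UMIs this held for Slc7a5 and Slc3a2.

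In alpha-like cells, which do not make insulin, Atf4 stood at 238 and 263 CPM in mutants against 398 and 301 CPM in controls (−0.48 ± 0.165, edgeR adjusted p = 0.298). With edgeR, 0 of the 6 transporters tested passed between mutants and controls, beside 0.355% of 8741 genes, and 0 passed with DESeq2 or limma-voom; at an unadjusted p under 0.05, 1 was lower and 1 higher, beside 868 of 8741 genes in either direction. Slc7a5 was the lower one, at 21.5 and 16.5 CPM in mutants against 38.6 and 31.9 CPM in controls, from 19 to 29 UMIs a sample (−0.90 ± 0.328, edgeR adjusted p = 0.327). Slc38a5 was the higher one, at 187 and 123 CPM against 101 and 95.8 CPM (0.64 ± 0.205, edgeR adjusted p = 0.251), and it passed without mutant 2 (0.94, edgeR adjusted p = 0.0171), 1 of 17 alternatives in which it did. Groups did not overlap for Slc3a2 (238 and 211 against 269 and 255 CPM, −0.23) and Slc38a2 (65.6 and 69.4 against 93.3 and 72.8 CPM, −0.29) either, while 18.6% of all genes had both mutants below both controls and 21.2% both above. Slc7a2 (−0.03) and Slc7a1 (0.11) had overlapping groups.

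The mutant effect itself was compared between alpha-like and beta-like cells. With edgeR, 0 of 6 transporters differed (0 also at an unadjusted p under 0.05 and with DESeq2), beside 0.213% of 9410 genes, with differences from −0.29 for Slc38a5 to 0.48 for Slc7a1. Atf4, which the Cre targets in beta cells, did differ, by 2.49 ± 0.435 log2 units (edgeR adjusted p = 0.000888). In delta-like cells only Slc3a2 (51.9 and 71.1 against 88.1 and 58.5 CPM, −0.25) and Slc38a2 (65.8 and 68.8 against 53.6 and 29.3 CPM, 0.66) had enough UMIs to test, and the groups of Slc38a2 did not overlap, as for 20.5% of genes with mutants above. In PP-like cells Slc3a2 (168 and 122 against 120 and 103 CPM, 0.39), Slc7a2 (111 and 65.2 against 130 and 93.3 CPM, −0.34) and Slc38a2 (79.8 and 40.8 against 102 and 37.3 CPM, −0.32) had enough, and Slc3a2 had both mutants above both controls, as did 15.8% of genes. By edgeR, DESeq2 and limma-voom 0 of these passed, beside 0.0227% and 0.342% of all genes by edgeR, and 0 had an unadjusted p under 0.05.

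No gene of the other lists passed between mutants and controls either. Among beta-like cells 0 of 22 other amino acid transporters passed by edgeR (3 higher and 0 lower before adjustment), with the lowest p for Slc7a14 at 398 and 413 against 292 and 282 CPM (0.50 ± 0.113, edgeR adjusted p = 0.125). Of 34 sensing genes 0 passed (1 higher and 2 lower unadjusted), with Eif4ebp1 first at 6.05 and 14.9 against 28.1 and 34.2 CPM (−1.57 ± 0.329, edgeR adjusted p = 0.102). Of 11 glutathione genes 0 passed (1 higher and 3 lower unadjusted), with Chac1 first at 1.51 and 13.6 against 30.6 and 39.0 CPM (−2.19 ± 0.599, edgeR adjusted p = 0.176). Eif4ebp1 and Chac1 thus had the order of samples seen for Slc7a5 and Slc1a4, with mutant 1 lowest and mutant 2 next. In beta-like cells 23.3% of all genes had both mutants below both controls, and the share of these with mutant 1 lowest was not counted. In alpha-like cells 0 of 14, 0 of 31 and 0 of 8 genes of these lists passed, with 0, 3 and 0 at an unadjusted p under 0.05. Of all genes, 1904 of 13753 in beta-like and 868 of 8741 in alpha-like cells had an unadjusted edgeR p under 0.05.

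Across the 16 sums of class and sample, the 5 genes most like Slc7a5 of 6664 genes with a mean of at least 20 CPM were Atxn2l, Chtf8, Fam207a, Cebpb and Gm26694, with Pearson's r of log2(CPM + 1) from 0.89 to 0.92. Those most like Slc7a2 were Rnf130, Rplp1, Ttr, Lpl and Rps2, with r from 0.93 to 0.97. The sums of a sample share a library and those of a class share cells of 1 kind, so these values are a description over 16 points. Slc7a5 had 0 UMIs in PP-like cells of mutant 2 and 1 UMI in those of control 2. The weight of these low sums in its r was not tested.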

How the data were processed

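UMI counts per gene and cell barcode were used as deposited by the authors, 1 table per pooled sample, made with an inDrops-type droplet protocol per the labels' protocols. The submitters' processing notes name the build mm10 and Seurat; the aligner is not given in the sources used here. Human K562 cells were added at 10% per the labels' protocols and cannot be called in these tables of mouse genes.

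Barcodes with at least 500 genes and under 20% mitochondrial UMIs were kept. Shares of insulin, Gcg, Sst and Ppy UMIs were scaled to their 99th percentile, and the leading hormone named the class where it reached 0.1 and the runner-up was at most 1/3 of it; of the beta-like cells 301 of 4854 and of the delta-like cells 62 of 272 had a runner-up above 1/5. No doublet caller was run, and 780 barcodes with mixed hormones were left out. Counts were summed per sample and class, 0.827 to 12.9 CPM being the limit that a count of 0 allows (taken as 3 UMIs) in alpha-like and endothelial cells. Sums were tested with edgeR 4.0.16 (quasi-likelihood, TMM over 16 sums, filterByExpr, Benjamini-Hochberg adjustment over all genes, threshold 0.05) in R 4.3.3: mutant against control in the 4 sums of a class, and classes over all 16 sums with sample terms. The value after ± is an SE derived from the edgeR test, the absolute log2 difference divided by the square root of its F statistic. In simulated counts on the real means, edgeR recovered 93% of genes changed by 1 log2 unit between mutant and control in beta-like cells (13753 genes), 59% in alpha-like cells (8741 genes) and 98% between alpha-like and beta-like cells (9410 genes). These shares hold for the simulated counts only. In the data, Slc7a5, Slc1a4 and Atf4 changed by more than 1 log2 unit in beta-like cells and missed the threshold. DESeq2 1.42.0 and limma-voom (limma 3.58.1) were alternatives, with other scalings, gates, filters, the replicate number as a block and leaving out each sample.

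The transporters and the lists of other transporters, sensing and glutathione genes were chosen with earlier results of these data known. Of each list, the genes with the lowest p were named.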

Additional observations from a re-analysis of the deposited data

Results flagged for a closer look

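Among the results given above, the effect of the mutant genotype differed between cell classes for Atf4 itself. Its log2 change in alpha-like cells exceeded that in beta-like cells by 2.49 ± 0.435 (edgeR adjusted p = 0.000888, n = 2 pools a group). Atf4 stood at 8.03 and 148 CPM in the beta-like cells of the mutants and 446 and 457 CPM in those of the controls, beside 238 and 263 against 398 and 301 CPM in alpha-like cells. None of the 6 transporters tested showed such a difference with edgeR (0 at an unadjusted p under 0.05, 0 with DESeq2). With no filter on low counts, which let Slc1a4 be tested, its difference was 2.12 ± 0.641 (edgeR adjusted p = 0.300 over 21287 genes).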

How the results depend on the processing

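Of 726 values of single transporters under alternatives, 657 kept their direction and their side of the threshold, 24 gained the call, 14 lost it and 30 changed sign, all of the last without a call, and 1 with no test moved past its interval (the ratio of Slc3a2 in the Atf4 split, 1.39 when thinned to 8000 UMIs); the cause was not tested. Genes changed in mutant beta-like cells, 64 by edgeR, numbered 99 with library totals, 155 with no filter, 26 with the runner-up hormone held to 1/5, 239 with DESeq2, 31 with limma-voom, 19 with clusters, 174 in cells with Xist, 8 in cells with Y-linked UMIs, and 22 to 474 leaving out 1 sample (a lone sample being assumed to vary like the other groups). In alpha-like cells, 31 became 13 with library totals (3 higher and 10 lower, from 13 and 18), 103 with no filter, 11 with DESeq2, and 34 to 75. In delta-like cells, 1 became 0 without hormone genes, 28 with no filter, 2 with the runner-up at 1/5 or 1/2, 3 with at least 1000 genes per barcode, 29 with clusters, and 11 to 41. In PP-like cells, 9 became 0 with DESeq2's size factors in edgeR, library totals or DESeq2, 5 with the runner-up at 1/5 and with limma-voom, 1 at 1/2, 3 with 1000 genes, and 6 to 15; clusters formed no PP class. Leaving out 1 sample gave 2024 to 3134 genes (of 3141) for alpha-like against beta-like cells, 996 to 1759 (of 1724) for delta-like, 517 to 1393 (of 1371) for PP-like, and 6 to 29 (of 20) for the difference of the mutant effect, which was 31 with no filter and 5 with DESeq2. Library totals moved the median of all genes by 0.37, 0.54 and 0.54 for alpha-like, delta-like and PP-like against beta-like cells.

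The replicate number as a block gave 101 genes in beta-like, 18 in alpha-like, 4 in delta-like and 0 in PP-like cells, and Slc7a5 in beta-like cells was the 1 transporter whose call it changed. Nothing in the labels pairs same-numbered samples, and they did not deviate together (r = −0.10 over 6656 genes). Pairing the numbers crosswise, chosen after seeing the data, gave 465, 93 and 0 genes in beta-like, alpha-like and PP-like cells, 3 transporters among the first.

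Signs changed as follows. In mutants, Slc7a11 in beta-like cells with Y-linked UMIs was −0.34; in alpha-like cells Slc7a2 was 0.017 with the runner-up at 1/2 and −0.16 to 0.11 leaving out 1 sample, and Slc7a1 −0.27 to 0.59; in delta-like cells Slc38a2 was −0.21 with clusters and Slc3a2 −0.50 to 0.11; in PP-like cells Slc7a2 was −0.82 to 0.030. For alpha-like against beta-like cells, Slc7a1 was −0.026 at 1/2, −0.0061 with clusters and −0.52 to 0.67 leaving out 1 sample, and Slc38a2 was −0.047 at 1/5, −0.030 with Ins2 alone, −0.032 with clusters, −0.087 with 1000 genes and −0.11 to 0.091. Slc7a1 in delta-like cells was 0.092 with library totals. In PP-like cells Slc7a1 was 0.12, 0.47 and 0.085 with DESeq2's size factors, library totals and DESeq2, and −0.40 to 0.12; Slc38a2 was 0.14, 0.49 and 0.11, and −1.08 to 0.22. For the difference of the mutant effect, Slc38a5 was 0.026 with 1000 genes and −0.72 to 0.0030 leaving out 1 sample, Slc7a5 −0.23 to 1.18 and Slc7a1 −0.032 to 1.08. Depth left only Slc3a2 and Slc38a2 in delta-like cells, and these and Slc7a2 in PP-like cells, for the test of the mutants.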
